A study of Homo sapiens with 8 samples.

Results

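The genes described here encode the enzymes and carriers of the tricarboxylic acid (TCA) cycle, of pyruvate entry into mitochondria, and of the glutamate, aspartate, malate and citrate reactions that join the cycle to the cytosol. They were chosen by name, from a list of 32 gene symbols, and all 32 were found among the 13068 genes listed in both deposited tables. All 32 also passed the filter on low values, which left 12939 genes to be tested. The RNA came from sorted cells of KG-1a, an established line from a human acute myeloid leukaemia, as the labels name them. A lentivirus had given the cells a short hairpin RNA, either a control hairpin (shCTL, with the genotype given as WT) or a hairpin against NYNRIN (shNYNRIN, with the genotype given as NYNRIN-knockdown), with 4 libraries per group. The labels also give bone marrow as the tissue and leukemia stem cell as the cell type of all samples. The title of the series names TXNIP, redox balance and resistance to the BCL2 inhibitor venetoclax, and the labels name no drug treatment for these cells. The labels say neither how many hairpins against NYNRIN were used nor whether replicates were separate cultures, so a p-value sets effects against the spread of these libraries, which may be technical.

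The TCA cycle oxidises acetyl-CoA in the mitochondrial matrix and passes the electrons to the respiratory chain. Pyruvate enters through a carrier and is turned into acetyl-CoA by the pyruvate dehydrogenase complex, while glutamine carbon enters as glutamate and then as 2-oxoglutarate. Citrate, malate and aspartate also leave the mitochondrion, and cytosolic enzymes use them to make acetyl-CoA, NADPH and nucleotide precursors. Myeloid leukaemia cells are known to depend on mitochondrial respiration and on glutamine, and mutant forms of IDH1 and IDH2 occur in this disease.

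The libraries were deposited as 2 tables of 4 libraries, with replicates 1 and 2 of both groups in set 1 and replicates 3 and 4 in set 2. The library names number them otherwise. In set 1 the shCTL libraries are numbered 3 and 4 and the shNYNRIN libraries 1 and 2. In set 2 the shCTL libraries are numbered 1 and 2 and the shNYNRIN libraries 3 and 4. Within a set, the hairpin and whatever the library-name number stands for cannot be told apart. Values are read as FPKM, which scales a gene's reads by its length and by the library total, so a level is a share of the RNA sequenced. Fewer cells of a type and less RNA per cell cannot be told apart in such samples. The column of shCTL replicate 3 contained whole numbers, with a median difference of -0.5003 to shCTL replicate 4 over 3537 genes between 10 and 30 FPKM. It was left out of the tests and its value is printed beside the others, so the effect in set 2 rests on 1 control library. NYNRIN fell from 12.2 and 12.5 FPKM to 6.98 and 7.30 FPKM in set 1, and from 10.4 FPKM in shCTL replicate 4 (10 in shCTL replicate 3) to 2.83 and 2.84 FPKM in set 2. CD34, for which KG-1a is known, was at 0.68 to 1.79 FPKM in the 7 libraries. Of 10 stem, progenitor and KG-1a markers, 6 were at 1 FPKM or more in all 7 libraries, and their sum was 423.6 to 462.8 FPKM with shCTL and 391.2 to 495.9 FPKM with shNYNRIN. All 5 erythroid markers were at 1 FPKM or more in all 7 libraries, with a sum of 83.8 to 96.0 FPKM with shCTL and 85.8 to 98.6 FPKM with shNYNRIN. Of 5 granulocyte markers 1 reached 1 FPKM in all 7 libraries, and their sum was 1.05 to 1.26 FPKM with shCTL and 1.44 to 1.67 FPKM with shNYNRIN. Of 5 stromal markers only VIM did so, at 45.1 to 46.4 FPKM with shCTL and 55.3 to 56.3 FPKM with shNYNRIN. Of 4 B cell markers 1 did, CD79A, at 1.11 to 1.92 FPKM. None of the 5 monocyte or of the 5 T and NK markers did, though the monocyte marker CSF1R was at 0.74 to 1.35 FPKM. MPO, AZU1, CD14, CD68, CD3D and CD3E were below 0.1 FPKM in each tested library of set 2. There the monocyte marker FCGR1A reached 0.57 FPKM and the NK marker NKG7 1.02 FPKM. The part of other cells in the results that follow was not tested.

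All 32 genes were expressed, over a wide range of levels per length. MDH1, the cytosolic malate dehydrogenase, was the highest, at 192 to 220.3 FPKM, and PC, the pyruvate carboxylase that makes oxaloacetate, was the lowest, at 2.09 to 3.14 FPKM. CS, the citrate synthase that opens the cycle, and MDH2, the mitochondrial malate dehydrogenase that closes it, were at 113 to 128 and 98.1 to 108 FPKM. The levels of the 32 genes summed to 1487 and 1477 FPKM with shCTL and 1554 and 1557 FPKM with shNYNRIN in set 1. In set 2 the sum was 1459 FPKM in shCTL replicate 4 (1484 in shCTL replicate 3) and 1503 and 1497 FPKM with shNYNRIN. The sum was higher with shNYNRIN in set 1, and in set 2 when set against shCTL replicate 4. That of shCTL replicate 3 adds whole numbers, with a median difference of -0.5003 per gene to shCTL replicate 4. It thus cannot be ranked beside the shNYNRIN sums of set 2. Each sum includes SDHB, which varied widely between libraries of a group (14.5 FPKM in shCTL replicate 4 and 45 in shCTL replicate 3).

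**Figure D1:**
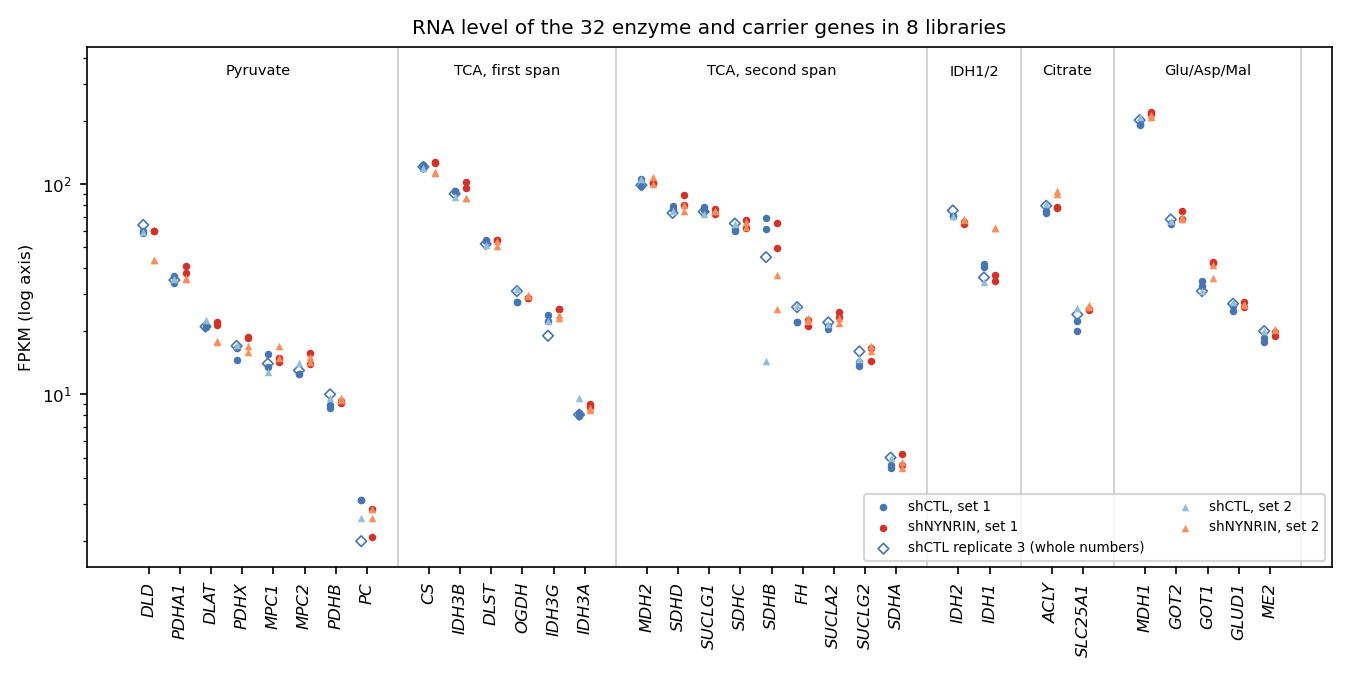
Level of each of the 32 genes in every library, in FPKM on a log axis, with the genes grouped by role and points coloured by group and set and open diamonds for the whole numbers of shCTL replicate 3. MDH1 lies at the top of the range and PC at the bottom, and for most genes the libraries of both groups lie close together.

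Genes of one complex were mostly not at equal levels, and in some complexes their order was the same in all 7 libraries. In the pyruvate dehydrogenase complex the order was DLD, PDHA1, DLAT, PDHX and PDHB in all 7 libraries, with DLD at 4.54 to 6.80 times the level of PDHB. In the NAD-linked isocitrate dehydrogenase, IDH3B stood above IDH3G and IDH3A in all 7, with a ratio of highest to lowest of 9.08 to 11.8. In succinyl-CoA synthetase the order was SUCLG1, SUCLA2, SUCLG2 in all 7, with a ratio of 4.40 to 5.73. Succinate dehydrogenase had the widest range, with SDHA, the flavoprotein subunit, 15.1 to 19.3 times below the highest subunit, SDHD. Copies of SDHA and of SDHD are annotated, and how reads shared with them were counted is not known, so this ratio is uncertain. The order of its subunits took 2 forms over the 7 libraries. So did that of the 2-oxoglutarate dehydrogenase complex (DLD, DLST and OGDH), with a ratio of 1.70 to 2.19. The pyruvate carrier subunits MPC1 and MPC2 were nearly equal, with a ratio of 1.02 to 1.24 and an order that changed between libraries.

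In set 1, 7 of the 32 genes passed the test (limma on log2(FPKM + 1), adjusted p under 0.05 over all 12939 genes), while 15.9% of all tested genes passed. Of the 32 genes 5 rose and 2 fell, and of all tested genes 9.33% rose and 6.61% fell. The count at an unadjusted p under 0.05 was 13 of 32, beside 32.4% of all. GOT1, MDH1, SLC25A1, MPC2 and SUCLA2 rose, and IDH1 and IDH2 fell, each by 0.32 or less on the log2 scale. In set 2, 7 genes passed again, against 20.3% of all tested genes. IDH1, SDHB, ACLY and GOT1 rose, as did 11.6% of all, and DLD, DLAT and FH fell, as did 8.71% of all. At an unadjusted p under 0.05 there were 10 of 32, beside 34.2% of all. GOT1 was the 1 gene that passed with the same sign in each set, which 2.26% of all tested genes did, and IDH1 was the 1 gene that passed with opposite signs, as did 3.51% of all. The difference between the sets passed for 6 genes (SDHB and IDH1 with a higher effect in set 2, and DLD, DLAT, IDH3A and MDH1 with a lower one), against 20.4% of all tested genes (10.3% with a higher effect and 10% with a lower one). A single effect fitted to both sets passed for 0 of the 32 genes by limma, and for 0.317% of all tested genes (0.193% higher and 0.124% lower). At an unadjusted p under 0.05 that effect passed for 9 of the 32, against 18.7% of all. Leaving out 1 library changed these counts. That of set 1 was 2 without any 1 of shCTL replicates 1 or 2 or shNYNRIN replicates 3 or 4 and 3 without shNYNRIN replicate 2. That of set 2 was 4 without shNYNRIN replicate 3, that of the difference was 3 without shNYNRIN replicate 4, and that of the single effect was 7 without shCTL replicate 4, when set 1 alone estimates it. With all libraries, the number of genes called was near the share among all genes in each of the 2 sets. The median log2 fold change of the 32 genes was 0.075 in set 1, beside 0.026 over all tested genes, and 25 of the 32 values were above 0, beside 56.6% of all. In set 2 the median was 0.020, beside 0.018 over all tested genes, with 18 of 32 above 0, beside 53.7% of all.

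**Figure D2:**
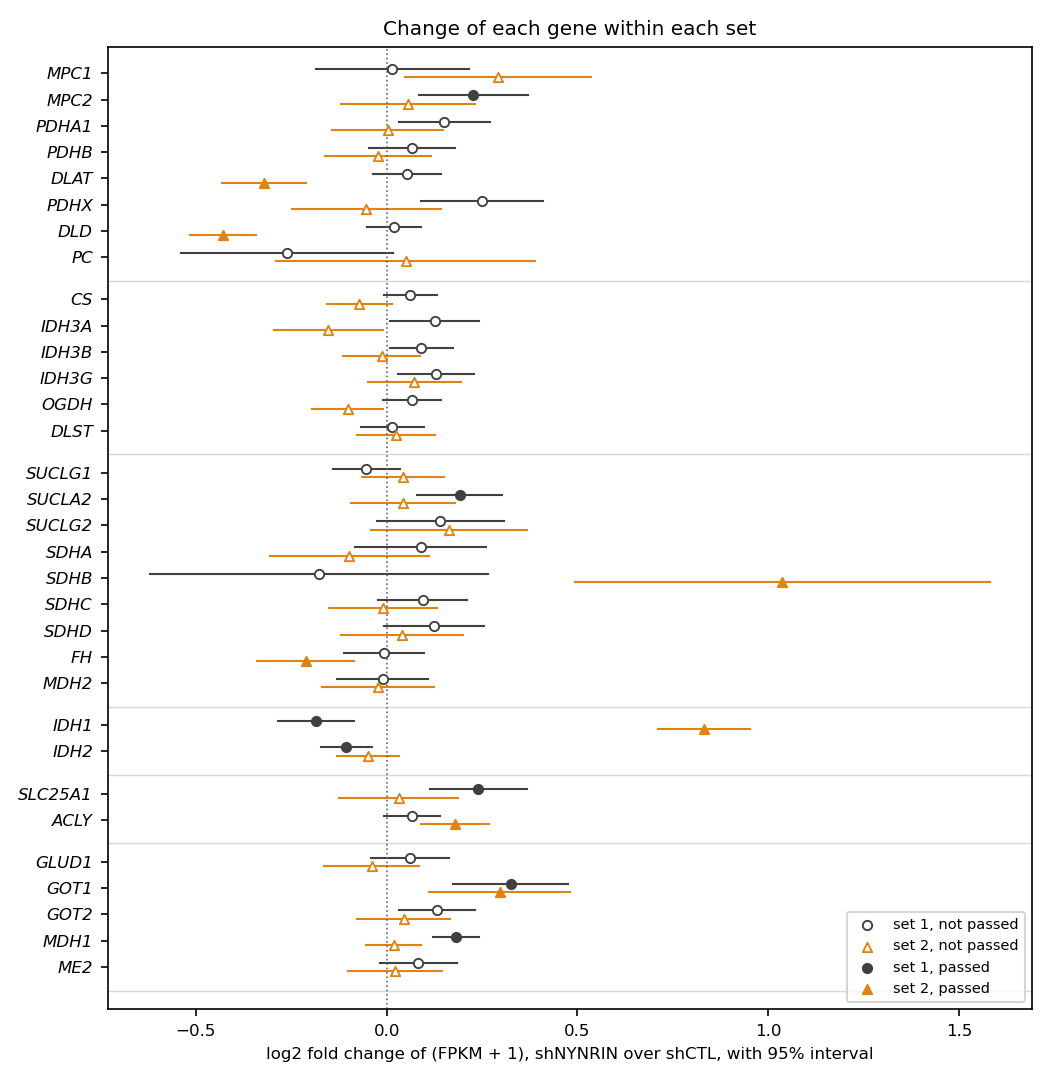
Log2 fold change (shNYNRIN over shCTL, log2(FPKM + 1) scale) of each of the 32 genes with its 95% interval from limma, in set 1 (circles) and in set 2 (triangles). Filled symbols passed the adjusted threshold of 0.05, and IDH1 and SDHB stand to the right and DLD and DLAT to the left in set 2.

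Of the 8 genes of pyruvate entry, MPC2 rose in set 1 and DLAT and DLD fell in set 2. DLD encodes the dihydrolipoamide dehydrogenase that the pyruvate, 2-oxoglutarate and branched-chain dehydrogenase complexes share, and spans chromosome 7 from 107890970 to 107931730 (plus strand, GRCh38, GENCODE 29, as are all gene positions given here). It stood at 60.1 and 58.4 FPKM in the shCTL libraries of set 1 and at 60.2 and 59.9 FPKM in the shNYNRIN libraries. In set 2 it stood at 59.0 FPKM in shCTL replicate 4 (64 in shCTL replicate 3) and at 43.4 and 43.7 FPKM in the shNYNRIN libraries. The shNYNRIN libraries of set 2 were thus below all the other libraries, which lay close together. The log2 fold change was 0.02 (SE 0.029) in set 1, where it did not pass (adjusted p = 0.699), and -0.43 (SE 0.036) in set 2 (adjusted p = 0.000882). The effects differed by -0.45 (adjusted p = 0.00169), and both calls held under each of 16 alternatives.

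DLAT, the acetyltransferase core of the pyruvate dehydrogenase complex, spans chromosome 11 from 112024814 to 112064390 (plus strand). Its levels were 20.8 and 21.2 FPKM with shCTL and 21.4 and 22.2 FPKM with shNYNRIN in set 1. In set 2 they were 22.5 FPKM in shCTL replicate 4 (21 in shCTL replicate 3) and 17.9 and 17.8 FPKM with shNYNRIN. As for DLD, only the shNYNRIN libraries of set 2 stood low. The log2 fold change there was -0.32 (SE 0.046, adjusted p = 0.00483), and the effects of the sets differed by -0.37 (adjusted p = 0.00725). The other subunits did not move with DLAT and DLD past the test. PDHA1, the catalytic E1 subunit, had a log2 fold change of 0.00 in set 2 (95% interval -0.14 to 0.15), and PDHB, its partner, one of -0.02 (adjusted p = 0.828). PDHX, which tethers DLD to the core, was at 16.7 and 14.5 FPKM with shCTL and 18.6 and 18.7 FPKM with shNYNRIN in set 1, a difference of 0.25 that lay just outside the threshold (adjusted p = 0.0501). In set 2 PDHX was at 17.12 FPKM in shCTL replicate 4 (17 in shCTL replicate 3) and at 16.996 and 15.9 FPKM with shNYNRIN, so the higher shNYNRIN library lay just under the controls.

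MPC2, a subunit of the mitochondrial pyruvate carrier, rose in set 1. It was at 12.6 and 12.4 FPKM with shCTL and at 14.0 and 15.7 FPKM with shNYNRIN, for a log2 fold change of 0.23 (SE 0.060, adjusted p = 0.0474). In set 2 its values were 14.1 FPKM in shCTL replicate 4 (13 in shCTL replicate 3) and 14.3 and 15.1 FPKM. The set 1 call was lost when any 1 of shCTL replicates 1 or 2 or shNYNRIN replicates 2, 3 or 4 was left out (adjusted p 0.078 to 0.165), and with quantile normalization or upper-quartile scaling. Its partner MPC1 had log2 fold changes of 0.02 in set 1 and 0.29 in set 2 (adjusted p = 0.925 and 0.094). PC had a log2 fold change of -0.26 in set 1 (SE 0.12, adjusted p = 0.174), and its value of 2.09 FPKM in shNYNRIN replicate 2 was the lowest of the 7 tested libraries.

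In the first span of the cycle, from citrate synthase to 2-oxoglutarate dehydrogenase, 0 of 6 genes passed in either set by limma, and 3 in set 1 and 2 in set 2 had an unadjusted p under 0.05. CS had log2 fold changes of 0.06 in set 1 (95% interval -0.01 to 0.13) and -0.07 in set 2 (-0.16 to 0.01). DLST, the succinyltransferase core of the 2-oxoglutarate dehydrogenase complex, had 0.01 (-0.07 to 0.10) and 0.02 (-0.08 to 0.13), and OGDH, the subunit that decarboxylates 2-oxoglutarate, 0.07 (-0.01 to 0.14) and -0.10 (-0.19 to -0.01). DLD, the remaining component of that complex, was the one that fell in set 2. IDH3B and IDH3G, the regulatory subunits of the NAD-linked isocitrate dehydrogenase, had 0.09 and 0.13 in set 1 and -0.01 and 0.07 in set 2. IDH3A, its catalytic subunit, was at 8.15 and 7.86 FPKM with shCTL and 8.66 and 8.99 FPKM with shNYNRIN in set 1. In set 2 it was at 9.56 FPKM in shCTL replicate 4 (8 in shCTL replicate 3) and at 8.43 and 8.56 FPKM with shNYNRIN. The difference between the sets was -0.28 (SE 0.077, adjusted p = 0.0465), and with shCTL replicate 3 counted the groups of set 2 overlapped. That call was lost in 12 of 15 alternatives, among them leaving out any 1 of 6 libraries (shCTL replicates 1 and 2, shNYNRIN replicates 1 to 4, adjusted p 0.0505 to 0.138).

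In the second span, from succinyl-CoA to oxaloacetate, SUCLA2 rose in set 1, and in set 2 FH fell and SDHB rose, out of 9 genes. SUCLA2, the ATP-forming subunit of succinyl-CoA synthetase, was at 20.5 and 21.2 FPKM with shCTL and at 23.3 and 24.7 FPKM with shNYNRIN in set 1 (log2 fold change 0.19, SE 0.047, adjusted p = 0.0369). In set 2 it stood at 21.7 FPKM in shCTL replicate 4 (22 in shCTL replicate 3) and at 21.8 and 23.0 FPKM. Its 4 shNYNRIN values all lay above the 3 tested shCTL values, though in set 2 by little. The call was lost when any 1 of shCTL replicates 1 or 2 or shNYNRIN replicates 2, 3 or 4 was left out (adjusted p 0.0618 to 0.16), and with quantile normalization or upper-quartile scaling.

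FH, the fumarase, was at 22.0 and 22.1 FPKM with shCTL and 22.7 and 21.2 FPKM with shNYNRIN in set 1. In set 2 it was at 26.4 FPKM in shCTL replicate 4 (26 in shCTL replicate 3) and at 22.3 and 23.0 FPKM with shNYNRIN. The controls of set 2 stood above all the other libraries, and the shNYNRIN libraries of set 2 lay near those of set 1. The log2 fold change in set 2 was -0.21 (SE 0.053, adjusted p = 0.034). Leaving out any 1 of shCTL replicates 1 or 2 or shNYNRIN replicates 3 or 4 ended the call (adjusted p 0.0611 to 0.141), and the difference between the sets did not pass (adjusted p = 0.0836).

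SDHB, the iron-sulfur subunit of succinate dehydrogenase, varied more between libraries of 1 group than nearly all genes. It was at 68.8 and 61.0 FPKM with shCTL and at 65.7 and 49.7 FPKM with shNYNRIN in set 1. In set 2 it was at 14.5 FPKM in shCTL replicate 4, 45 in shCTL replicate 3, and at 25.4 and 37.1 FPKM with shNYNRIN. The pair of controls of set 2 thus lay on both sides of the shNYNRIN libraries. The log2 fold change in set 2 against shCTL replicate 4 alone was 1.04 (SE 0.23, adjusted p = 0.022). With shCTL replicate 3 included as deposited it was 0.251 (adjusted p = 0.684), with that library plus 0.5 in place of shCTL replicate 4 it was -0.551 (adjusted p = 0.132), and without shNYNRIN replicate 4 it was 0.774 (adjusted p = 0.0567). The difference between the sets was 1.22 (SE 0.29, adjusted p = 0.03), and with shCTL replicate 3 plus 0.5 in place of shCTL replicate 4 it was -0.374 (adjusted p = 0.402). Leaving out shCTL replicate 1, shCTL replicate 2, shNYNRIN replicate 2 or shNYNRIN replicate 4 also ended that call (adjusted p 0.0511 to 0.0811). Its within-group SD of 0.278 on the log2 scale was the 20th highest of 5880 genes of at least 10 FPKM, whose median was 0.0427. The partner subunits SDHC and SDHD had within-group SDs of 0.0614 and 0.0733. In set 2 SDHC was at 64.8 FPKM in shCTL replicate 4 (65 in shCTL replicate 3) and 66.3 and 62.5 FPKM with shNYNRIN, and SDHD was at 74.9 FPKM (73) and at 74.9 and 79.3 FPKM. SDHA, SDHC and SDHD passed in neither set, with log2 fold changes of 0.09, 0.09 and 0.12 in set 1 and -0.10, -0.01 and 0.04 in set 2, nor did SUCLG1 (-0.05 and 0.04) and SUCLG2 (0.14 and 0.16), the other subunits of succinyl-CoA synthetase.

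**Figure D3:**
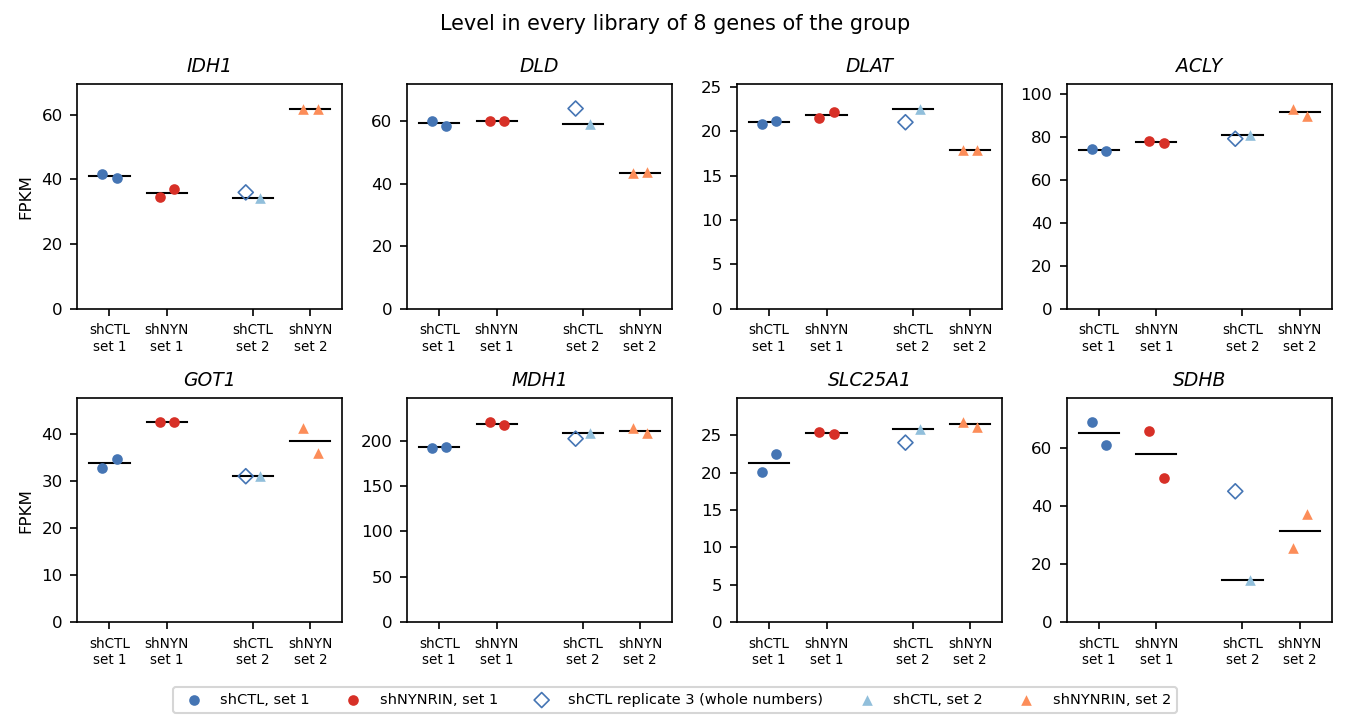
Levels in FPKM of 8 genes (IDH1, DLD, DLAT, ACLY, GOT1, MDH1, SLC25A1 and SDHB) in each library, by set and group. Each point is a library, each bar the mean of the tested libraries, and the open diamond is the whole number deposited for shCTL replicate 3. IDH1 and DLD part the groups in set 2, while the SDHB controls of set 2 lie far apart.

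The NADP-linked isocitrate dehydrogenases make NADPH and 2-oxoglutarate outside the NAD-linked step of the cycle, IDH1 in the cytosol and peroxisomes and IDH2 in mitochondria. IDH1 spans chromosome 2 from 208236227 to 208266074 (minus strand). It was at 41.5 and 40.3 FPKM with shCTL and 34.6 and 37.2 FPKM with shNYNRIN in set 1, and at 34.3 FPKM in shCTL replicate 4 (36 in shCTL replicate 3) and 61.7 and 61.9 FPKM with shNYNRIN in set 2. The shNYNRIN libraries were the lower ones in set 1 and by far the higher ones in set 2, with no overlap in either. On the log2 scale the fold change was -0.19 in set 1 (SE 0.041, adjusted p = 0.0291) and 0.83 in set 2 (SE 0.051, adjusted p = 0.000382). The effects differed by 1.02 (SE 0.065, adjusted p = 0.000445). The rise in set 2 and the difference held under each of 16 alternatives, while the fall in set 1 was lost without any 1 of shCTL replicates 1 or 2 or shNYNRIN replicates 1, 3 or 4 (adjusted p 0.0618 to 0.132). IDH2 was at 70.4 and 70.5 FPKM with shCTL and 66.2 and 64.7 FPKM with shNYNRIN in set 1, and at 70.2 FPKM in shCTL replicate 4 (75 in shCTL replicate 3) and 67.4 and 68.3 FPKM with shNYNRIN in set 2. Each shNYNRIN value of IDH2 was below each tested shCTL value, as for 5.51% of all tested genes and 1 of the 32 genes. Expressed as log2, the fold change was -0.11 in set 1 (SE 0.028, adjusted p = 0.0478) and -0.05 in set 2 (SE 0.034, adjusted p = 0.368). The IDH2 call was lost without any 1 of the 6 libraries left out in turn other than shCTL replicate 4 (adjusted p 0.0611 to 0.173). Together IDH1 and IDH2 summed to 112 and 111 FPKM with shCTL and 101 and 102 FPKM with shNYNRIN in set 1, and to 105 FPKM in shCTL replicate 4 (111 in shCTL replicate 3) and 129 and 130.2 FPKM with shNYNRIN in set 2.

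Citrate leaves the mitochondrion through SLC25A1 and is cleaved in the cytosol by ACLY, the ATP citrate lyase, to acetyl-CoA. ACLY spans chromosome 17 from 41866908 to 41930542 (minus strand). It was at 74.4 and 73.2 FPKM with shCTL and 77.8 and 76.8 FPKM with shNYNRIN in set 1, and at 80.5 FPKM in shCTL replicate 4 (79 in shCTL replicate 3) and 93.0 and 89.6 FPKM with shNYNRIN in set 2. Within each set the shNYNRIN libraries were the higher ones, and in set 2 by more. The log2 fold change was 0.07 in set 1 (adjusted p = 0.183) and 0.18 in set 2 (SE 0.037, adjusted p = 0.0182), and without shNYNRIN replicate 3 the latter was 0.153 and did not pass (adjusted p = 0.0905). The difference between the sets did not pass (0.11, adjusted p = 0.148). SLC25A1 was at 20.1 and 22.4 FPKM with shCTL and 25.4 and 25.1 FPKM with shNYNRIN in set 1, a log2 fold change of 0.24 (SE 0.053, adjusted p = 0.0291). In set 2 it was at 25.9 FPKM in shCTL replicate 4 (24 in shCTL replicate 3) and at 26.8 and 26.2 FPKM, so that the set 1 controls were the low libraries. Without shCTL replicate 1 or any 1 of the 4 shNYNRIN libraries the SLC25A1 call was lost (adjusted p 0.0579 to 0.101).

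IDH1 and ACLY, both cytosolic enzymes that rose in set 2, are the genes of that kind whose start sites have upstream sequence free of their own exons, and the 120 bases before each start are shown to compare their promoters (RefSeq, GRCh38.p14, minus strand, 5′ to 3′). Capitals mark the CCAAT box, searched as CCAAT on both strands.
IDH1 (chr2:208254459-208254578): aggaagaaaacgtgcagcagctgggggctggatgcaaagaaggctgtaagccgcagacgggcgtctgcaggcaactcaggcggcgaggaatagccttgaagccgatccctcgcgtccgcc
ACLY (chr17:41919023-41919142): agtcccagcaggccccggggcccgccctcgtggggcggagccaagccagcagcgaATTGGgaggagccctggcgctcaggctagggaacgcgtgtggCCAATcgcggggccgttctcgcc
The ACLY stretch holds CCAAT boxes 65 and 23 bases before the start, and the IDH1 stretch holds none. The RefSeq start used lies inside the GENCODE span of each gene, which has starts farther upstream. Over the 250 bases before the start, which were available for 30 of the 32 genes, 15 held a CCAAT box, against 33% of 27305 promoters. The ETS core CCGGAAG was in 7 of the 30 (8.82% of all), the NRF1 core GCATGCGC in 2, SDHB and SDHD (2.81% of all), and the E-box CACGTG in PDHB alone (6.49% of all). The GC box GGGCGG, which is not in capitals above, was in 20 of the 30 (42.3% of all). The cyclic AMP response element TGACGTCA and the stress-response element TGATGNAAT were in 0 of the 30 (1.77% and 0.916% of all). A match in these letters describes the sequence only.

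Among the glutamate, aspartate and malate enzymes, GOT1 and MDH1 rose in set 1 and GOT1 in set 2, out of 5 genes. Both belong to the cytosolic arm of the malate-aspartate shuttle, which carries reducing power into mitochondria. GOT1, the cytosolic aspartate aminotransferase, spans chromosome 10 from 99396870 to 99431569 (minus strand). It was at 32.8 and 34.6 FPKM with shCTL and 42.5 and 42.4 FPKM with shNYNRIN in set 1, and at 31.1 FPKM in shCTL replicate 4 (31 in shCTL replicate 3) and 41.1 and 35.8 FPKM with shNYNRIN in set 2. Each of the 4 shNYNRIN values was above each of the 3 tested shCTL values, as for 4 of the 32 genes (GOT1, GOT2, MDH1 and SUCLA2) and 10.7% of all tested genes. With shCTL replicate 3 counted, GOT2 and SUCLA2 overlapped. On the log2 scale the fold change was 0.32 in set 1 (SE 0.063, adjusted p = 0.0196) and 0.30 in set 2 (SE 0.078, adjusted p = 0.0387), with a difference of -0.03 (95% interval -0.27 to 0.21). A single effect over both sets was 0.31 (SE 0.055) and did not pass (adjusted p = 0.0712, with 0.0195 to 0.423 over 18 alternatives). It passed at 0.0195 without shCTL replicate 4, which leaves set 1 alone, and at 0.0239 with shCTL replicate 3 as deposited. The set 1 call was lost without any 1 of the 4 libraries of set 1 (adjusted p 0.0595 to 0.0954), and the set 2 call without any 1 of those 4 or shNYNRIN replicate 3 (adjusted p 0.0523 to 0.0887). In each of those fits the sign was kept.

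MDH1 spans chromosome 2 from 63588609 to 63607197 (plus strand). It was at 192 and 193 FPKM with shCTL and 220.3 and 217 FPKM with shNYNRIN in set 1, and at 208 FPKM in shCTL replicate 4 (202 in shCTL replicate 3) and 213 and 209 FPKM with shNYNRIN in set 2. The controls of set 1 were the lowest of the tested libraries and its shNYNRIN libraries the highest, with the libraries of set 2 between them. Expressed as log2, the fold change was 0.18 in set 1 (SE 0.025, adjusted p = 0.00674), a call kept whichever library was left out, and 0.02 in set 2 (SE 0.031, adjusted p = 0.731). The effects differed by -0.16 (SE 0.039, adjusted p = 0.0297), a call that was lost without any 1 of shCTL replicates 1 or 2 or shNYNRIN replicates 3 or 4 (adjusted p 0.069 to 0.112). That call was also lost with shCTL replicate 3 plus 0.5 in place of shCTL replicate 4. GOT2, the mitochondrial aspartate aminotransferase, had log2 fold changes of 0.13 and 0.04 (adjusted p = 0.0761 and 0.598). GLUD1, which turns glutamate into 2-oxoglutarate, had 0.06 (95% interval -0.04 to 0.16) and -0.04 (-0.16 to 0.09). ME2, the mitochondrial malic enzyme, had 0.08 and 0.02 (adjusted p = 0.226 and 0.823). MDH2, the mitochondrial partner of MDH1, had -0.01 (95% interval -0.13 to 0.11) and -0.02 (-0.17 to 0.12).

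**Figure D4:**
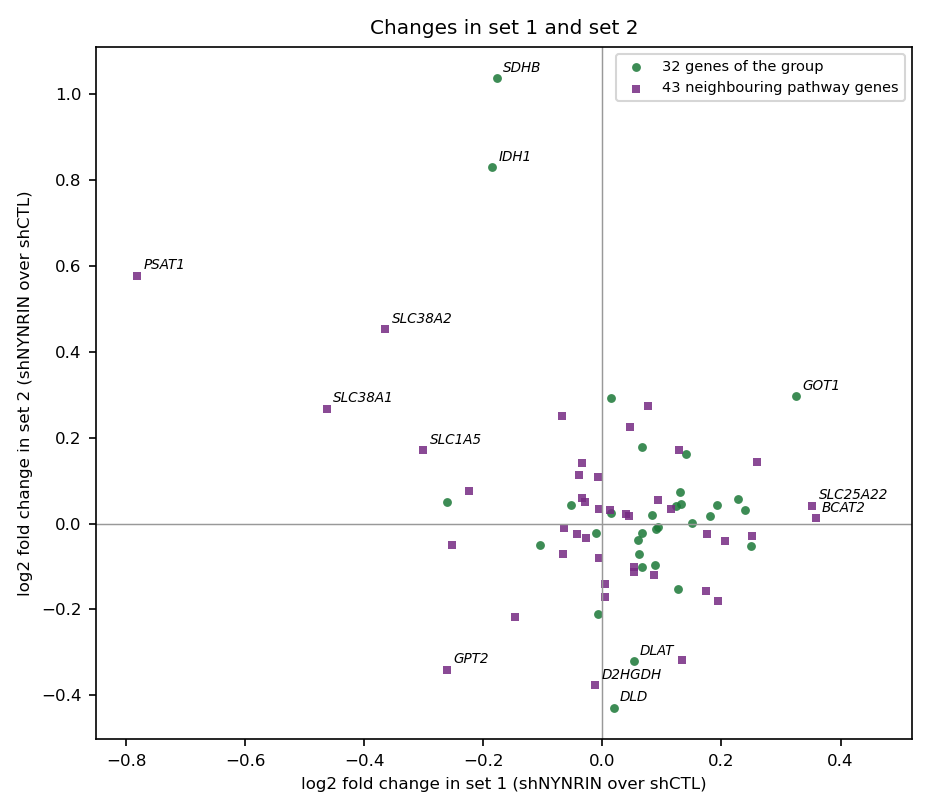
Log2 fold change of the 32 genes (circles) and of 43 tested genes of neighbouring pathway lists (squares) in set 1 (x axis) against set 2 (y axis), both shNYNRIN over shCTL on the log2(FPKM + 1) scale. GOT1 lies high on both axes, IDH1 and SDHB lie above 0 in set 2 and below 0 in set 1, and DLD and DLAT lie near 0 in set 1 and low in set 2, while PSAT1, SLC38A1, SLC38A2 and SLC1A5 lie at the upper left with IDH1.

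Genes that feed or control these enzymes were read from 7 further lists of 56 genes, of which 43 were tested and the other 13 were at low values or are not analysed here. In set 1, 6 rose and 6 fell, beside 9.33% and 6.61% of all tested genes, and in set 2, 5 rose and 4 fell, beside 11.6% and 8.71% of all. Most of these calls came from the list of glutamine uptake, glutaminase and aminotransferases, with 11 tested genes, of which 2 rose and 6 fell in set 1 and 4 rose and 2 fell in set 2. PSAT1, the phosphoserine aminotransferase that uses glutamate in serine synthesis, was at 59.5 and 56.1 FPKM with shCTL and 32.7 and 33.7 FPKM with shNYNRIN in set 1. In set 2 PSAT1 was at 46.0 FPKM in shCTL replicate 4 (43 in shCTL replicate 3) and at 69.2 and 69.2 FPKM with shNYNRIN. It thus fell in set 1 by 0.78 on the log2 scale (adjusted p = 0.000424) and rose in set 2 by 0.58 (adjusted p = 0.000775), a difference of 1.36 (adjusted p = 0.000159). SLC38A2, a sodium-coupled importer of neutral amino acids such as glutamine, was at 107 and 105 FPKM with shCTL and 79.2 and 85.2 FPKM with shNYNRIN in set 1, and at 86.6 FPKM in shCTL replicate 4 (88 in shCTL replicate 3) and 117 and 121 FPKM with shNYNRIN in set 2. It likewise had opposite signs, -0.36 and 0.45 (adjusted p = 0.00394 and 0.00189), and its effects differed by 0.82 (adjusted p = 0.000744). SLC1A5, the glutamine exchanger, named after its values were seen, had -0.30 and 0.17 (adjusted p = 0.00265 and 0.0191) and a difference of 0.47 (adjusted p = 0.00146). Without shNYNRIN replicate 3 or 4 its rise in set 2 was not called (adjusted p 0.0598 to 0.0959). SLC38A1, a related importer, had -0.46 in set 1 (adjusted p = 0.0183, and 0.0671 to 0.0937 without shCTL replicate 1 or 2) and 0.27 in set 2 (adjusted p = 0.134), and its effects differed by 0.73 (adjusted p = 0.0138). IDH1 had the same signs as PSAT1, SLC38A2 and SLC1A5 in each set. For each of these genes, every library with library-name number 3 or 4 was above every library with number 1 or 2, in both groups. Their opposite signs thus cannot be told apart from a difference by that number, and the cause was not tested. GPT2, the mitochondrial alanine aminotransferase, fell in both sets, with log2 fold changes of -0.26 and -0.34 (adjusted p = 0.0308 and 0.02). The first of these was lost without any 1 of shCTL replicates 1 or 2 or shNYNRIN replicates 1, 3 or 4. The second was lost without shNYNRIN replicate 4, and with shCTL replicate 3 plus 0.5 in place of shCTL replicate 4.

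In the other lists few genes passed. ACO1, the cytosolic aconitase, rose in set 1 by 0.21 (adjusted p = 0.0369). The mitochondrial glutamate carrier SLC25A22 rose by 0.35 (adjusted p = 0.0198) and SDHAF4, an assembly factor of succinate dehydrogenase, by 0.25 (adjusted p = 0.0394), both in set 1. In set 2 PDK1 and PDK2, kinases that inhibit pyruvate dehydrogenase, went opposite ways, with PDK1 at -0.22 and PDK2 at 0.25 (adjusted p = 0.0468 and 0.0395). D2HGDH, the D-2-hydroxyglutarate dehydrogenase, was at 6.12 FPKM in shCTL replicate 4 (5 in shCTL replicate 3) and at 4.54 and 4.43 FPKM with shNYNRIN in set 2, a log2 fold change of -0.38 (adjusted p = 0.0136). FASN, the fatty acid synthase that uses acetyl-CoA, passed only in the difference between sets (-0.21, adjusted p = 0.021). Leaving out 1 library ended each of these calls. For ACO1 those libraries were shCTL replicates 1 and 2 and shNYNRIN replicates 1, 3 and 4 (adjusted p 0.0655 to 0.165), for SDHAF4 the 6 libraries other than shCTL replicate 4 (0.0514 to 0.176), and for SLC25A22 shCTL replicates 1 and 2 (0.0746 to 0.0946). For PDK1, PDK2 and FASN they included shCTL replicates 1 and 2 and shNYNRIN replicates 3 and 4 (0.0517 to 0.174), and for D2HGDH shNYNRIN replicates 3 and 4 (0.0596 to 0.073). With quantile normalization or upper-quartile scaling ACO1 in set 1 and PDK2 in set 2 were not called, and SDHAF4 was not called with upper-quartile scaling. The D2HGDH call in set 2 was also lost with shCTL replicate 3 included as deposited. The same held with that library plus 0.5 in place of shCTL replicate 4.

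The authors' deposited table gives its own log2 fold changes for set 1. There, in the authors' deposited table, 8 of the 32 genes had a q-value under 0.05 (5 higher and 3 lower), against 19.9% of its 13068 genes (9.4% higher and 10.6% lower). They were GOT1, MDH1, PDHX, SUCLA2 and SLC25A1, higher, and IDH1, IDH2 and PC, lower. Of these, 6 were among the 7 genes called by limma in set 1, which is 75% of the former and 85.7% of the latter, and the sign was shared for 29 of 32. For GOT1 the authors' deposited table has a log2 fold change of 0.30 and for MDH1 0.15, close to the values above, and for PC it has -0.37. Mean counts, as the authors' deposited table gives them after normalization, ranged from 550 for SDHA to 14738 for CS, so each of the 32 genes was well covered in set 1.

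Strand was not given in the sources used here, and 19 of the 32 genes share exon sequence with a gene on the other strand. For the genes with the largest changes these partners were low. IDH1-AS1, opposite IDH1, was at most 2.63 FPKM, LAMB1, opposite DLD, was at 5.80 FPKM in shCTL replicate 4 and 7.45 and 7.87 FPKM in the shNYNRIN libraries of set 2, and PIH1D2, opposite DLAT, was at 0.540 to 0.637 FPKM in set 2. LAMB1 was higher where DLD was lower. Processed or duplicated copies are annotated for 12 of the 32 genes, and SDHA, SDHD and GLUD1 are uncertain to that extent, with copies of SDHD listed at up to 3.58 FPKM and of GLUD1 at up to 2.01 FPKM in set 2.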

How the data were processed

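The members and all gene lists were chosen with earlier results of these data known. Sorted KG-1a cells were profiled by Illumina sequencing after a low-input template-switching kit (SMART-Seq v4), per the labels. This kit is not known to mark strand. Bowtie 0.12.9, Cufflinks 2.1.1, HTSeq, mm10 and hg38 are named in the submitters' processing notes, with no role given. How reads were aligned, counted by strand and annotated was not given in the sources used here. Deposited values of 7 libraries were taken to be FPKM, judged from scale and decimals. The deposited whole numbers of shCTL replicate 3 were treated as a score. The authors' first table also holds a signal that is the authors' mean normalized count per gene, with log2 fold changes and a p-value and q-value of the authors, whose program is likewise not known here.

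Groups came from the sample titles, and columns were matched through the library names in the labels. The plan had all 8 libraries in the tests. Since the column of shCTL replicate 3 was whole numbers, it was left out. Genes that reached 1 FPKM in 2 or more of the 7 libraries were fitted as log2(FPKM + 1) with limma 3.58.1 (R 4.3.3), using its mean-variance trend and two-sided tests, with Benjamini-Hochberg adjustment over 12939 genes at a threshold of 0.05. Effects in each set and their difference came from an interaction model and the single effect from an additive one, and all libraries shared 1 estimate of the spread, so the lone control of set 2 was assumed to vary like the others. Each library summed to 308998 to 313691 FPKM, and the authors' mean normalized counts summed to 38530000. Depth per library was not given in the sources used here. No 2 libraries had more than 0.0232% of equal values. The procedure was tested on simulated data.

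The rule for named genes took members past the threshold in a set or in the difference (at most 16, with at most 8 from each set, by adjusted p) with values in every library and the other members by range, and at most 3 non-members past the threshold per list and contrast, by size of the change. Titles and library names number the controls differently. Over 5880 genes of at least 10 FPKM, deviations of libraries with the same library-name number correlated by 0.102, 0.141, 0.153 and 0.147. These pairs span both tables. The block by these numbers was fitted for the single effect over both sets only. That effect called 0 of the 32 genes without the block, so there was no call to lose. The effects in each set and their difference were not fitted with it. Some results are not reported here.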

Additional observations from a re-analysis of the deposited data

Results flagged for a closer look

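The effect of shNYNRIN differed between the sets by the test of the difference itself (limma, adjusted over all 12939 genes) for 6 of the 32 genes, against 20.4% of all tested genes. The log2 fold change of IDH1 was 1.02 higher in set 2 than in set 1, and that of SDHB was 1.22 higher, the latter against a control value of 14.5 FPKM in shCTL replicate 4 where shCTL replicate 3 was listed at 45. It was lower in set 2 for DLD by a difference of -0.448, for DLAT by -0.374, for IDH3A by -0.279 and for MDH1 by -0.163. NYNRIN itself had a lower log2 fold change in set 2 than in set 1, by -0.85, and TXNIP had a lower one by -0.71. Whether these moved with the differences of the 6 genes was not tested. The tables, the library-name numbers of the groups and whatever else separates the sets cannot be told apart.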

How the results depend on the processing

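Of the 32 genes, 7 were called in set 1. There were 11 among genes of at least 10 FPKM, 0 without the mean-variance trend in limma (10 at an unadjusted p under 0.05), 1 with the title number as a replicate block, 2 with set 1 fitted alone, and 2 to 7 leaving out 1 library. The 7 calls in set 2 became 3 without the trend, 3 with the title-number block and 4 to 6 leaving out 1 library. The 6 calls of the difference became 3, 3 and 3 to 5. The single effect over both sets called 0 genes, and 1 among genes of at least 10 FPKM, 1 with shCTL replicate 3 as deposited, 1 with it plus 0.5, 6 as the mean of the effects of the sets, and 0 to 7 leaving out 1 library (7 without shCTL replicate 4, which leaves set 1 alone). The block by library-name number gave 0 (7 at an unadjusted p under 0.05). SDHB reversed to -0.551 in set 2 and to -0.374 in the difference with shCTL replicate 3 plus 0.5 in place of shCTL replicate 4. The cause was not tested.

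Over all genes, the 2062 calls of set 1 fell to 977 without the trend, 627 with the title-number block, 1234 with set 1 alone and 588 to 2065 leaving out 1 library (588 and 617 without shCTL replicate 1 or 2). The 2631 of set 2 fell to 630 with that block and to 1195 and 1169 without shNYNRIN replicate 3 or 4, and the 41 of the single effect ranged from 0 to 2304. The split in set 1 of 1207 higher and 855 lower became 925 and 965 with quantile normalization and 807 and 1173 with upper-quartile scaling, under both of which 3 of the 32 genes rose and 2 fell. Deviations of libraries with the same title number correlated by -0.128, -0.174, -0.161 and -0.15. These deviations are from group means over both sets and so include the differences between sets. They cannot show whether title numbers pair the libraries within a set. Without shCTL replicate 4 there is no value for set 2 or the difference. Read depth per library is unknown, so no counting limit is given, and the lone control limits set 2.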
